A study of Mus musculus with 6 samples.

Results

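The genes described here were the 48 chemokines and chemokine receptors among the 18193 genes measured in mouse uterine epithelium. They were chosen by name alone, as every gene whose symbol begins with Ccl, Cxcl, Ccr or Cxcr followed by a digit, together with Cx3cl1 and Cx3cr1. They comprised 32 ligands and 16 receptors. An array reads a gene through probe sets, each a group of short probes, and the 76 probe sets of these 48 genes were reduced to 1 per gene, the one with the highest mean log2 signal over the 6 arrays. Cxcr1, Ccl19 and the Ccl21 genes were not analysed here.

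The study used 6 Affymetrix arrays in 3 groups of 2. The groups were wild-type (WT) females on day 1 of pregnancy (samples 302 and 303), WT females on day 4 (samples 277 and 284), and Sox17GFP/+ females on day 4 (samples 253 and 281), which the labels call Sox17-heterozygous mutants. Day 1 was the day of the vaginal plug, and strain and age were not given in the sources used here. In every group the epithelium was freed from pieces of uterus with pancreatin and dispase, and 100 ng of its RNA was labelled. Nothing states that the samples came from separate animals, so p-values measure the spread between these samples only, and with 2 arrays in a group each value is imprecise. The labels name no Cre driver and no tissue limit for the GFP allele. The Sox17 probe sets may also read the GFP allele and do not check the genotype. The comparison of days asks what differs in the epithelium between mating and the eve of implantation, and the comparison of genotypes what differs on day 4 with 1 altered copy of Sox17, a transcription factor gene.

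Chemokines are small secreted proteins that direct the movement of leukocytes along a gradient. They act through receptors coupled to G proteins, mostly on leukocytes, and each receptor answers to a few ligands. After mating, the estrogen-exposed uterine epithelium releases chemokines that draw neutrophils and other leukocytes towards the lumen, and this influx subsides as progesterone rises before implantation. Many chemokine genes are switched on by the transcription factor NF-kB or by interferon.

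The label of the tissue was checked against markers. The 8 epithelial markers, Epcam and Krt8 among them, had summed signals of 132673 to 148364 on the 6 arrays. Not every one was steady between the WT days. Krt7 fell from 10906 and 10869 to 2063 and 2285, Cldn3 rose from 11196 and 11945 to 33662 and 27190, and 6 did not pass a test. The pan-leukocyte marker Ptprc had signals of 62.9 and 57.0 on day 1, 98.0 and 112 on day 4 in WT, and 30.3 and 18.9 in heterozygous samples. Laptm5, also a leukocyte marker, went the other way, with 842 and 567, then 325 and 317, and 1740 and 471. The 5 leukocyte markers summed to 1003 and 787, then 765 and 671, and 1882 and 549, and none passed a test. The 10 stromal markers together read 13085 and 18873 on day 1 and 1138 to 3173 on the 4 arrays of day 4. Fbln1 alone read 9585 and 9945 on day 1, and 4 of the 10 had a positive log2 change between the WT days. WT day 4 array 277 stood apart in its dim range, where its median was 137.6 and those of the other 5 arrays lay from 66.2 to 78.0. It gave the highest of the 6 signals for 26 of the 48 genes, and for 41.5% of all genes. Of the 37 genes with no group mean of 200 or more, 25 read highest on it. Results below are therefore also given without array 277 where this changed them.

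Most of these genes gave low signals. All 6 signals were below 100 for 22 of the 48 genes, that is for 12 of the 32 ligands and 10 of the 16 receptors. A mean signal of at least 200 in some group was reached by 10 ligands and by 1 receptor, Cxcr4. Without detection calls it is not known which low signals lay above background. In tissue RNA, fewer cells of a type and less RNA per cell cannot be told apart.

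**Figure D1:**
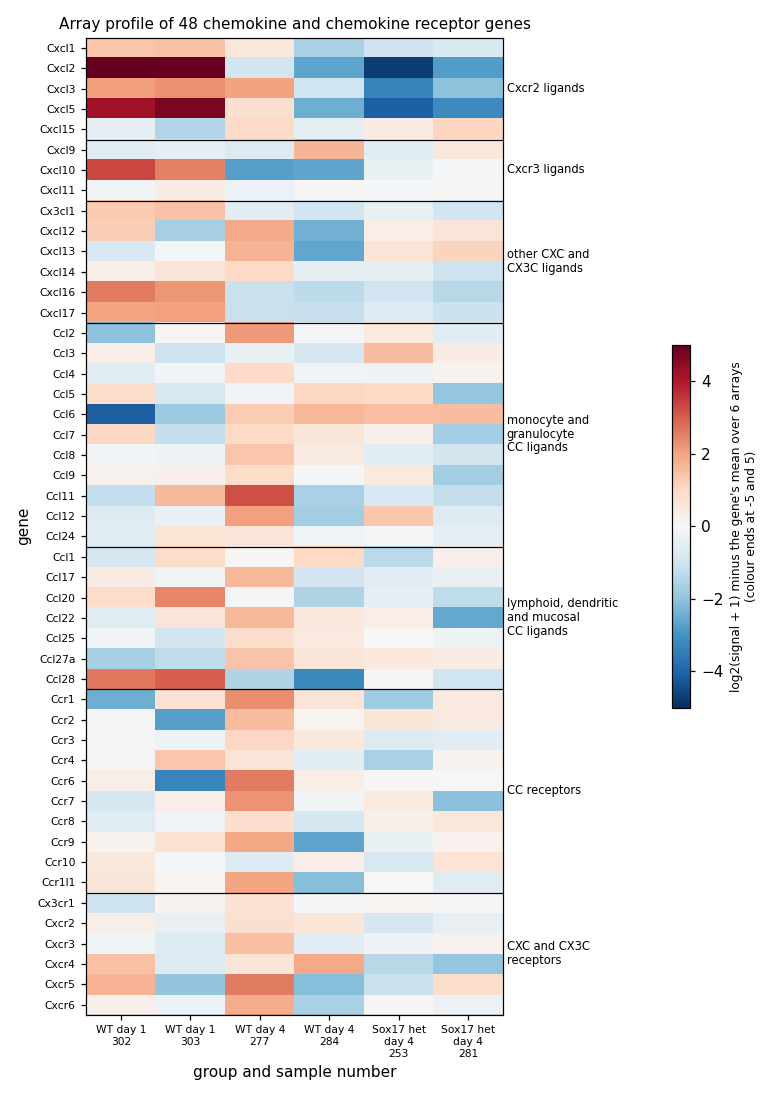
Level of each of the 48 genes on each of the 6 arrays, as log2(signal + 1) minus the gene's own mean over the arrays, with genes in rows by role and arrays in columns. Colours end at -5 and 5, so the first 2 cells of Cxcl2 are at the end of the scale. The day 1 arrays are red for Cxcl2, Cxcl5, Cxcl10, Cxcl16, Cxcl17 and Ccl28 and blue for Ccl6, and the column of array 277 is red for many dim genes.

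In WT epithelium 6 ligands fell and 2 rose between day 1 and day 4, and none of the 16 receptors passed the test on all 6 arrays. The genes that fell were Cxcl2, Cxcl10, Cxcl16, Cxcl17, Cx3cl1 and Ccl28, and those that rose were Ccl6 and Ccl27a. The test was limma, with p-values adjusted by Benjamini-Hochberg across the 18193 genes and a threshold of 0.05. The 6 genes are 12.5% of the 48, against 5.73% of all genes that fell. The 2 genes are 4.17%, against 7.58% of all genes that rose. The median log2 change over the 48 genes was 0.35, against 0.30 over all genes. Of the 48 genes, 10 read lower and 8 higher on both day 4 arrays than on both day 1 arrays, 20.8% and 16.7%, against 21.3% and 35.4% of all genes. After quantile normalization the medians were -0.09 and 0.14, and without array 277 the median over the 48 genes was -0.31. Leaving out single arrays changed these calls. Without day 1 sample 302, or without 303, no gene of the whole table passed, and without heterozygous sample 253 or 281, which share the estimate of spread, Cxcl2, Cxcl10, Cxcl16 and Cxcl17 passed and the other 4 did not. Without array 277, 9 of the 48 genes fell and 1 rose, and the falls then included Cxcl1, Cxcl5 and the receptor Ccr9. Ccl6 missed the threshold whichever array was left out (adjusted p = 0.0541 to 0.103), and passed on all 6 arrays with an intensity trend in eBayes (adjusted p = 0.000668). Of the 10 stromal markers, Fbln1 fell, from 9585 and 9945 to 618 and 379, and 9 did not pass, 4 of the 10 having a positive log2 change. Their part in the falls of the ligands was not tested.

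**Figure D2:**
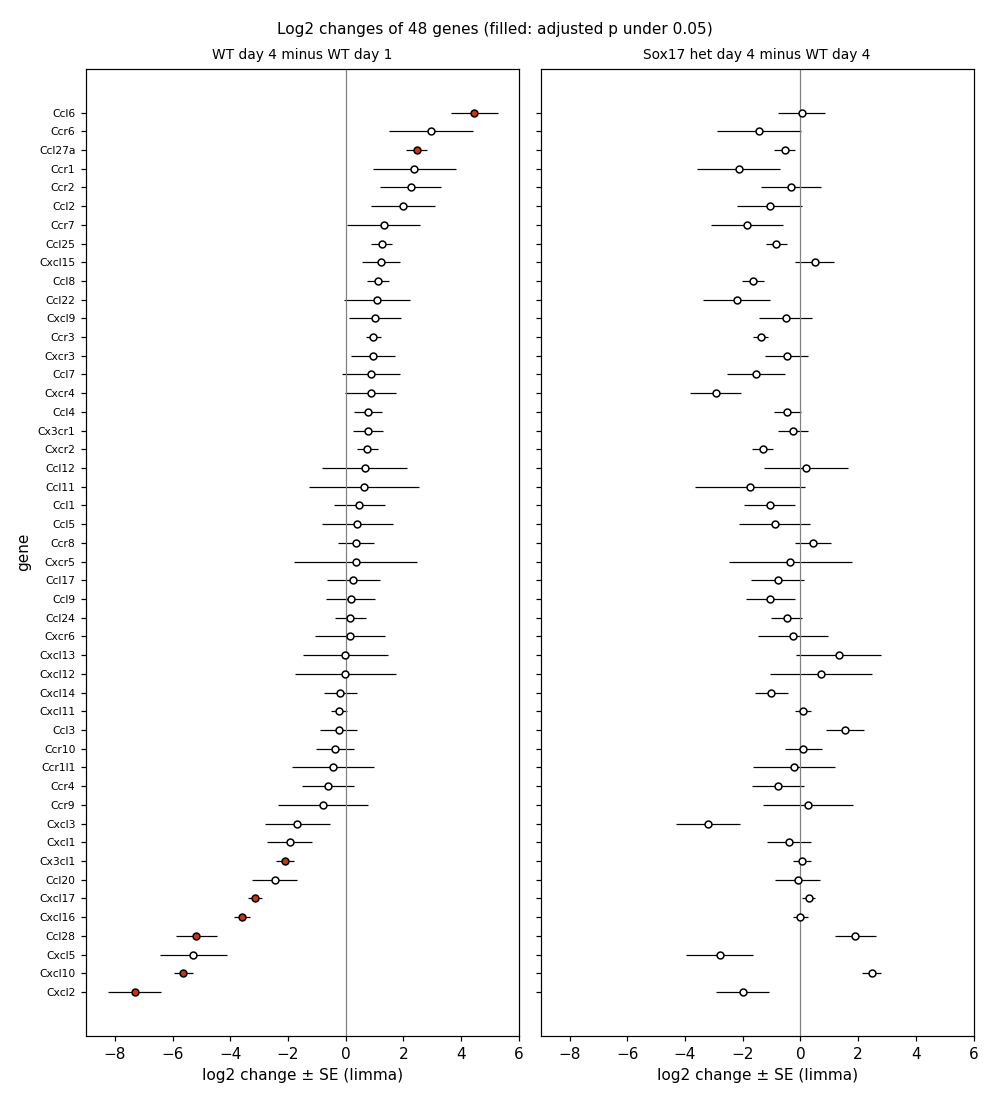
Log2 change of each of the 48 genes with its standard error, for WT day 4 minus WT day 1 and for Sox17 heterozygous minus WT on day 4, with genes in rows ordered by the change between the days. Filled points passed the test at an adjusted p under 0.05. The 8 filled points, from the fit on all 6 arrays, are all ligands and all lie in the comparison of days, and there is none in the comparison of genotypes.

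The first group of ligands, Cxcl1, Cxcl2, Cxcl3, Cxcl5 and Cxcl15, holds the neutrophil attractants, of which the first 4 are known to act through the receptor Cxcr2. The 5 genes form a run on the chromosome in RefSeq order (Cxcl5, Ppbp, Pf4, Cxcl3, Cxcl15, Cxcl1, Cxcl2), interrupted only by Ppbp and Pf4. Of the 5, Cxcl2 passed the test from day 1 to day 4. The bases just before the start of Cxcl1, Cxcl2 and Cxcl3 are shown because these 3 genes share a stretch that most promoters lack. They are RefSeq sequences of build GRCm38.p6, written 5′ to 3′ on the strand of the gene, from chr5:90891125-90891244 (Cxcl1), chr5:90903779-90903898 (Cxcl2) and chr5:90785981-90786100 (Cxcl3), all on the plus strand. Capitals mark letters that match GGGNNNTTCC, a loose form of the NF-kB site, on either strand.
Cxcl1: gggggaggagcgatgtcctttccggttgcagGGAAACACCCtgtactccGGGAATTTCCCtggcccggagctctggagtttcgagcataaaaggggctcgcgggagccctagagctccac
Cxcl2: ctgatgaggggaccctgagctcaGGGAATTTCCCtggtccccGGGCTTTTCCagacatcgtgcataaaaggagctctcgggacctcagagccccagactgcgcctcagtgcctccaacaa
Cxcl3: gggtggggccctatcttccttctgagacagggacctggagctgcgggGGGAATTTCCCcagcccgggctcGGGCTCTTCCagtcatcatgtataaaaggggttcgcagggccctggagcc
The stricter form GGGANTTTCC, every match of which is also a loose match, occurs in 0.356% of 32851 promoters of 250 bases. Promoters were at hand for 35 of the 48 genes, and 4 of them, Cxcl1, Cxcl2, Cxcl3 and Ccr3, held the strict form. The loose form occurs in 4.65% of all promoters and in 9 of the 35. A match describes letters and not binding.

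Cxcl2 read 8020 and 6242 on day 1 against 79.4 and 23.4 on day 4 in WT. It fell by 7.32 ± 0.91 on the log2 scale (SE from limma, adjusted p = 0.0169). Both day 1 arrays read far above both day 4 arrays. In the heterozygous samples its signals were 4.60 and 21.0, lower than in WT on day 4 without overlap. The log2 difference of -2.00 ± 0.91 did not pass (adjusted p = 0.425). This difference was -1.14 without array 277, -2.86 without sample 284 and -0.83 with 32 added before taking logs.

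Cxcl5 resembled Cxcl2 in its order of groups, and is named after its values were seen. Its signals were 1413 and 1965 on day 1, 130 and 12.8 on day 4 in WT, and 3.49 and 7.37 in heterozygous samples. The log2 change of -5.29 ± 1.16 between the days did not pass (adjusted p = 0.0563). Array 277 gave the higher of the WT day 4 signals, and without it the change was -6.91 and passed (adjusted p = 0.027). Cxcl5 passed in 10 of the 15 alternatives run, with adjusted p from 0.00031 to 0.217 over all 15. They included quantile normalization (adjusted p = 0.0204) and the intensity trend in eBayes, in which genes of like brightness share an estimate of spread (adjusted p = 0.00212). Between heterozygous samples on day 4 and WT on day 1 Cxcl5 passed, with a log2 difference of -8.09 (adjusted p = 0.0283).

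Cxcl3, also named after its values were seen, was dim throughout. It read 68.1 and 77.7 on day 1, 64.2 and 7.08 on day 4 in WT, and 0.594 and 2.91 in heterozygous samples. The heterozygous arrays lay below all the others, but the log2 difference of -3.20 ± 1.12 from WT on day 4 did not pass (adjusted p = 0.359). Its size depended on the WT array kept, being -1.69 without array 277 and -4.71 without sample 284. With 32 added before taking logs the difference was -0.86. Cxcl15, a chemokine best known from lung epithelium, read 61.0 and 29.7 on day 1, 166 and 59.7 on day 4 in WT, and 112 and 177 in heterozygous samples. It overlapped between the days and between the genotypes. Its second probe set, 1456428_at, read 17.4 and 3.65, then 5.67 and 11.5, and 62.5 and 51.1. There heterozygous samples lay above WT on day 4 without overlap. That log2 difference of 2.65 ± 0.76 did not pass (adjusted p = 0.34 in limma over every probe set on its own).

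Cxcl1 has 3 probe sets, and they differ. The one used by the rule, 1441855_x_at, is of a type whose probes can also bind similar sequences, and it read 747 and 785 on day 1, 425 and 91.4 on day 4 in WT, and 136 and 165 in heterozygous samples (log2 change between days -1.95 ± 0.77, adjusted p = 0.186). This change passed without array 277 (-3.05, adjusted p = 0.0271), with the mean of the 3 probe sets (-3.70, adjusted p = 0.0208) and with the intensity trend in eBayes (adjusted p = 0.0274). The probe set 1419209_at read 1632 and 1648 on day 1, 56.0 and 47.6 on day 4 in WT, and 4.39 and 2.49 in heterozygous samples. The third, 1457644_s_at, read 969 and 1162, then 95.2 and 34.9, and 73.4 and 63.8. In a fit over every probe set on its own, which was added after the data were seen, both of these fell from day 1 to day 4, by 4.96 ± 0.30 (adjusted p = 0.0082) and 4.18 ± 0.53 (adjusted p = 0.0222). All 3 probe sets read lower on day 4 than on day 1 without overlap. They part on genotype, where 1419209_at was lower in heterozygous samples by a log2 difference of -3.60 ± 0.30 (adjusted p = 0.192) and 1457644_s_at differed by 0.24 ± 0.53 (adjusted p = 0.859).

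**Figure D3:**
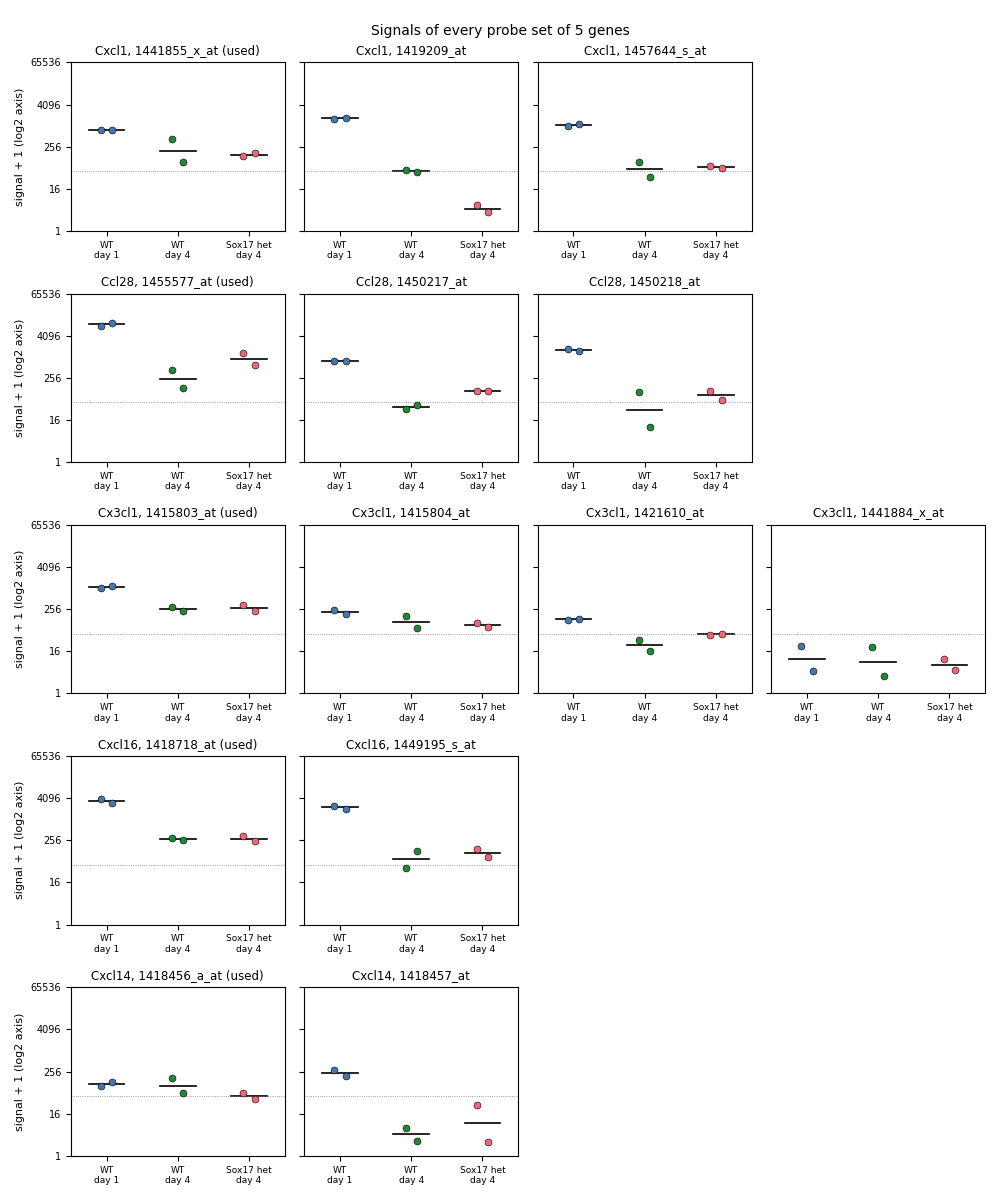
Signals of every probe set of Cxcl1, Ccl28, Cx3cl1, Cxcl16 and Cxcl14 on the 6 arrays, as signal + 1 on a log axis, by group. Points are single arrays (left 302, 277 and 253, right 303, 284 and 281), the black bar is the mean of the log2 values and the dotted line a signal of 50. The Cxcl1 probe sets start near each other on day 1 and spread from 2.49 to 165 in the heterozygous samples.

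Cxcr2, the receptor of these ligands, was dim and read 16.2 and 9.42 on day 1, 23.1 and 20.0 on day 4 in WT, and 6.74 and 9.65 in heterozygous samples. It did not pass in either comparison. Of the 8 neutrophil markers measured, S100a9 fell between the days and 7 did not pass. Their summed signals were 308 and 227 on day 1, 630 and 206 on day 4 in WT, and 164 and 145 in heterozygous samples, and their part in the result was not tested.

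The second group, Cxcl9, Cxcl10 and Cxcl11, holds the interferon-induced ligands of Cxcr3, which draw activated T cells and NK cells. Cxcl10 fell and the other 2 did not pass. Cxcl10 read 343 and 195 on day 1 and 4.06 and 4.45 on day 4 in WT, a log2 change of -5.63 ± 0.34 (adjusted p = 0.00669 in limma). Since the day 4 signals are near the bottom of the scale, the size depends on the constant added before taking logs, and with 32 in place of 1 it was -3.01. In heterozygous samples Cxcl10 read 25.5 and 31.1, above both WT arrays of the same day and below both arrays of day 1.

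The region before the start of Cxcl10 is shown because it holds both the loose NF-kB letters and GAAANNGAAA, the letters of an interferon-stimulated response element. It lies at chr5:92348890-92349117 (GRCm38.p6, minus strand, RefSeq), and capitals mark both kinds of match.
Cxcl10: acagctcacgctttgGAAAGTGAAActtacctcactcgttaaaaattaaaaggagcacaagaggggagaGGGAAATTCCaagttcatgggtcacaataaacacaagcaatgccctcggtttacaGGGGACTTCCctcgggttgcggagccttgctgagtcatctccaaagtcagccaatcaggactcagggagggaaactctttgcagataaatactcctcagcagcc
The response element occurs in 2.98% of the 32851 promoters and, among the 35, in those of Cxcl10 and Cxcl14. Cxcl9, a neighbour of Cxcl10 on the chromosome, read 4.63 and 4.92 on day 1 and 4.10 and 26.0 on day 4 in WT, so that the groups overlap. Cxcl11 read 24.0 to 38.2 on all 6 arrays. Cxcr3, their receptor, read 65.6 and 46.8 on day 1, 221 and 50.9 on day 4 in WT, and 64.3 and 89.5 in heterozygous samples. Its high value is on array 277. Of 8 T and NK cell markers none passed, and Cd4, Ncr1 and Nkg7 were below 50 on all 6 arrays. Cd8a read 192 and 156 on day 1, 232 and 69.9 on day 4 in WT, and 110 and 80.0 in heterozygous samples. The summed signals of the 8 were 330 and 394, then 834 and 232, and 240 and 206.

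Of the 6 other CXC and CX3C ligands, Cxcl16, Cxcl17 and Cx3cl1 fell and Cxcl12, Cxcl13 and Cxcl14 did not pass. Cxcl17, a chemokine of mucosal surfaces, read 23967 and 25129 on day 1, 2808 and 2727 on day 4 in WT, and 3926 and 2927 in heterozygous samples. It fell by 3.15 ± 0.23 on the log2 scale between the days, an 8.87-fold difference (adjusted p = 0.00775). The 2 arrays of a group differed little for this gene beside the difference between days.

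Cxcl16 and Cx3cl1 are made as membrane-bound proteins that can be shed, and they bind Cxcr6 and Cx3cr1. Cxcl16 read 3924 and 3039 on day 1, 306 and 266 on day 4 in WT, and 328 and 248 in heterozygous samples. It fell by 3.59 ± 0.27 (adjusted p = 0.00783), and its second probe set, 1449195_s_at, fell too (log2 change -4.94 ± 0.64, adjusted p = 0.0233 in the fit over probe sets). Cx3cl1 read 1031 and 1148 on day 1, 294 and 218 on day 4 in WT, and 327 and 218 in heterozygous samples, and fell by 2.10 ± 0.31 (adjusted p = 0.0235). On the probe sets used, the day 4 groups of both genes overlap each other and lie below day 1. On 1421610_at, another probe set of Cx3cl1, WT day 4 read 33.2 and 15.4 and heterozygous samples 46.6 and 49.7, without overlap. That log2 difference of 1.05 ± 0.41 did not pass (adjusted p = 0.424 in the fit over probe sets). On the remaining probe sets of Cx3cl1 the day 4 groups overlap.

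The call for Cx3cl1 depends on the probe set. Among its other probe sets, 1421610_at fell (log2 change -2.45 ± 0.41, adjusted p = 0.0378), while 1415804_at (-1.02 ± 0.48, adjusted p = 0.264) and the dim 1441884_x_at (-0.28 ± 1.28, adjusted p = 0.916) did not pass. With the mean of all its probe sets the change was -1.46 (adjusted p = 0.191). It also did not pass without WT day 4 sample 284 (adjusted p = 0.055).

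The receptors of these ligands gave no call. Cxcr6 read 60.3 and 41.0 on day 1, 186 and 15.7 on day 4 in WT, and 52.1 and 40.2 in heterozygous samples, so that the 2 WT day 4 arrays lie on either side of all others. Cx3cr1 read 40.4 and 96.4, then 140 and 81.6, and 91.3 and 88.0. On the probe sets used, neither shows a separation of the days. A second probe set of Cxcr6, 1422812_at, read 10.5 and 3.53 on day 1 and 2.81 and 1.1 on day 4 in WT. These lay lower without overlap, near the bottom of the scale, and did not pass (adjusted p = 0.295 in the fit over probe sets).

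Cxcl14, a chemokine of epithelia, is named after its values were seen because its 2 probe sets part. The one used, 1418456_a_at, read 101 and 128 on day 1 and 167 and 59.5 on day 4 in WT. The other, 1418457_at, read 282 and 193 on day 1 and 5.40 and 1.71 on day 4, a log2 change of -5.81 ± 1.27 that did not pass (adjusted p = 0.0644). Cxcl12, the ligand of Cxcr4, has 3 probe sets. The one used read 75.0 and 9.28 on day 1 and 122 and 5.20 on day 4 in WT, wider apart within each group than between them. Another, 1417574_at, read 7.6 and 3.35, then 31.4 and 20.3, higher without overlap (2.10 ± 0.87, adjusted p = 0.217 in the fit over probe sets). The third, 1448823_at, overlapped between the days, and read 152 and 35.7 on day 4 in WT against 27.7 and 13.4 in heterozygous samples.

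**Figure D4:**
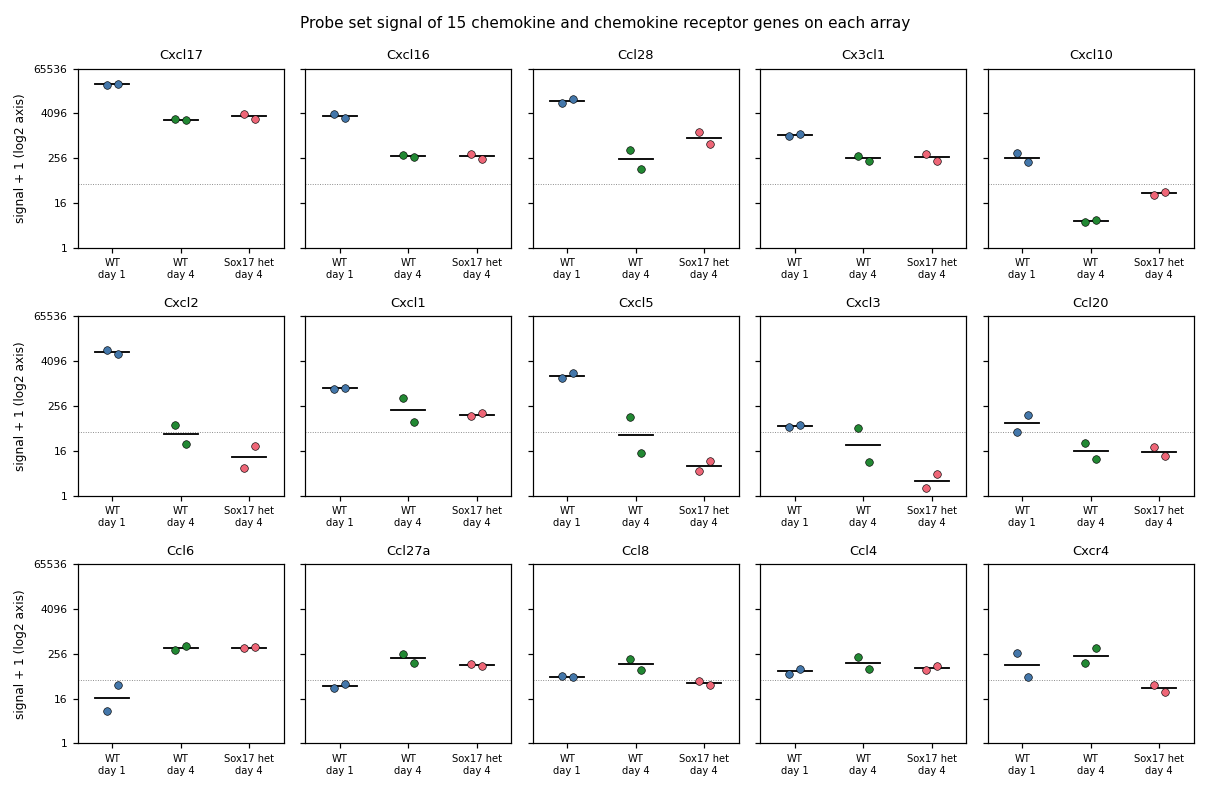
Signals of the 12 genes that the naming rule gave, and of Cxcl3, Cxcl5 and Ccl20, on the 6 arrays, by group, as signal + 1 on a log axis. Points are single arrays (left 302, 277 and 253, right 303, 284 and 281), the black bar is the mean of the log2 values, and the dotted line is a signal of 50. Cxcl17, Cxcl16, Ccl28, Cx3cl1, Cxcl2 and Cxcl10 are higher on both day 1 arrays, Ccl6 and Ccl27a are lower, and the Cxcr4 points of day 1 and day 4 in WT overlap.

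Among the 7 CC ligands of lymphoid, dendritic and mucosal cells, Ccl28 fell, Ccl27a rose and 5 did not pass. Ccl28 is a ligand of mucosal epithelia that draws antibody-secreting cells through Ccr10 and Ccr3. It read 7623 and 9738 on day 1, 425 and 130 on day 4 in WT, and 1280 and 611 in heterozygous samples. Between the days it fell by 5.19 ± 0.71 (adjusted p = 0.0204). The heterozygous arrays lay between the WT groups, above both of day 4 and below both of day 1.

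Ccl28 is also read by 2 further probe sets. 1450217_at read 780 and 755 on day 1, 31.8 and 40.8 on day 4 in WT, and 106 and 106 in heterozygous samples, and fell between the days by 4.38 ± 0.24 (adjusted p = 0.00778). 1450218_at read 1763 and 1465, then 99.1 and 9.12, and 107 and 60.9 (log2 change -5.66 ± 1.15, adjusted p = 0.0565). All 3 read lower on day 4. On day 4 the probe set used and 1450217_at read higher in heterozygous than in WT samples without overlap, and 1450218_at overlapped.

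Its receptor Ccr10 read 69.4 and 45.4 on day 1, 30.2 and 61.4 on day 4 in WT, and 27.6 and 77.0 in heterozygous samples, with overlap in each comparison. The 120 bases before the start of Ccl28 and of Cx3cl1 are shown as promoters of ligands that fell without a match to the NF-kB letters or to those of the interferon-stimulated response element in 250 bases. They lie at chr13:119623699-119623818 and chr8:94772060-94772179 (GRCm38.p6, plus strand, RefSeq), and hold no capitals.
Ccl28: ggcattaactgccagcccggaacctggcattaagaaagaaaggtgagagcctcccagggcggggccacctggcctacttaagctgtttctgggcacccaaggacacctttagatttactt
Cx3cl1: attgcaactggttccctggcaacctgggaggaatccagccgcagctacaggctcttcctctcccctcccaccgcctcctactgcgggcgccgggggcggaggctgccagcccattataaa
No match says only that these letters are not in the window. The letters of an estrogen response element, GGTCANNNTGACC, occur in 0.0639% of all promoters and in 0 of the 35. TTCNNNGAA, the letters of an interferon-gamma activated site, occur in 7.02% of all promoters and in 4 of the 35 (Ccl17, Ccr1l1, Ccr6 and Cxcl14). The SOX letters CATTGT occur in 10.7% of all promoters and in 3 of the 35, those of Ccr1l1, Ccr3 and Ccr9.

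Ccl20, which draws Ccr6-bearing cells to mucosal surfaces, is named after its values were seen. It read 51.0 and 150 on day 1, 25.3 and 8.82 on day 4 in WT, and 19.0 and 10.5 in heterozygous samples. Day 1 lay above day 4 without overlap, and the log2 change of -2.46 ± 0.78 did not pass (adjusted p = 0.121), while it passed after quantile normalization (adjusted p = 0.0368) and centring (adjusted p = 0.0391). Ccl27a read 29.7 and 39.3 on day 1, 255 and 146 on day 4 in WT, and 139 and 123 in heterozygous samples, and rose by 2.46 ± 0.36 (adjusted p = 0.0229). Ccl27a has near-identical copies in the mouse genome, and its probe set is of the type that can bind similar sequences, so the copies may share its signal.

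Of the 11 CC ligands that act mainly on monocytes and granulocytes, Ccl6 rose and 10 did not pass. Ccl6, made by macrophages and other myeloid cells, read 6.47 and 35.9 on day 1, 316 and 412 on day 4 in WT, and 369 and 380 in heterozygous samples. It rose by 4.45 ± 0.81 (adjusted p = 0.0374), and its second probe set, 1420249_s_at, rose by 2.97 ± 0.27 (adjusted p = 0.0126). All 4 day 4 arrays lay above both day 1 arrays on each probe set. The neighbours of Ccl6 on the chromosome, Ccl9, Ccl3, Ccl4 and Ccl5, did not pass.

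Of the 10 macrophage markers, Lyz2 and C1qa rose between the days, Cd68 fell, and 7 did not pass. Lyz2 read 177 and 236 on day 1 against 1223 and 980 on day 4 in WT and 956 and 942 in heterozygous samples. C1qa read 8.91 and 17.0, then 171 and 84.6, and 8.61 and 3.68. The summed signal of the 10 was 22702 and 21195 on day 1, 17176 and 17271 on day 4 in WT, and 13826 and 14430 in heterozygous samples, mostly from Cd14 and Cd68. Ccl6 and Lyz2 read high in both day 4 groups and C1qa only in WT. The part of macrophages in the rise of Ccl6 was not tested.

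Ccl8, an attractant of monocytes and other leukocytes, read 63.6 and 58.8 on day 1, 185 and 95.2 on day 4 in WT, and 47.5 and 36.7 in heterozygous samples. Its log2 change between the days, 1.11 ± 0.39, did not pass (adjusted p = 0.15 in limma). The change was 1.58 without sample 284 and 0.63 without array 277. Ccl4, an attractant of monocytes and T cells, read 71.8 and 101 on day 1, 216 and 98.3 on day 4 in WT, and 92.0 and 123 in heterozygous samples. Ccl2, the main ligand of Ccr2, read 8.88 and 44.4, then 180 and 37.8, and 56.6 and 26.9. Array 277 gave the high value of the WT day 4 pair for each of the 3 genes.

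None of the 10 CC receptors and 6 CXC and CX3C receptors passed in any of the 3 comparisons on all 6 arrays with 1 probe set per gene. Their smallest adjusted p was 0.0915 between the days, 0.214 between the genotypes and 0.243 between heterozygous samples on day 4 and WT on day 1. Without array 277 Ccr9, the receptor of Ccl25, fell between the days by 3.06 ± 0.43 (adjusted p = 0.0464), and its signals were 19.2 and 28.6 on day 1 and 67.2 and 1.94 on day 4 in WT. With the intensity trend and without sample 302 Ccr6 rose by 4.77 ± 1.43 (adjusted p = 0.0427), having read 42.3 and 2.48 on day 1 and 205 and 42.6 on day 4. Both calls rest on 1 array in a group. Ccr2, the receptor of monocytes, has 4 probe sets, and the one used read 30.1 and 3.81 on day 1, 96.4 and 33.9 on day 4 in WT, and 48.0 and 43.1 in heterozygous samples. Another, 1421186_at, read 2.63 and 3.53, then 70.6 and 27.7, and 21.3 and 15.9, and rose by 3.48 ± 0.51 in the fit over probe sets (adjusted p = 0.0292). A further probe set, 1460067_at, read 22.6 and 22.9, then 51.5 and 74.8, and 19.9 and 20.4 (1.41 ± 0.27 between the days, adjusted p = 0.0507 in the same fit). Between the genotypes the probe set used overlapped. On 1421186_at, 1421187_at and 1460067_at heterozygous samples read below WT on day 4 without overlap. These differences did not pass (adjusted p = 0.227 to 0.483). All 4 probe sets of Ccr2 read low, none above 100 on any array.

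In the comparison of heterozygous with WT epithelium on day 4, none of the 48 genes passed the test. Nor did any of the 18193 genes in limma with its default prior (0% in each direction). With the intensity trend in eBayes 640 genes passed, and 0 of the 48 were among them. At an unadjusted p under 0.05, Ccl28 and Cxcl10 were higher and Ccl8, Cxcl3, Ccr3, Cxcr2 and Cxcr4 were lower. These are 4.17% and 10.4% of the 48, against 4.56% and 8.66% of all genes, so that both shares are near the background. Groups without overlap were found for 4 genes with higher and 13 with lower heterozygous signals, 8.33% and 27.1%, against 18% and 30.6% of all genes. The median log2 difference over the 48 genes was -0.48, against -0.20 over all genes, and it was 0.00 without array 277.

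The 2 genes that read higher in heterozygous samples both fell between the days in WT. The log2 difference of Cxcl10 was 2.47 ± 0.34 (unadjusted p = 0.0013, adjusted p = 0.165, the smallest of the 48 genes) and that of Ccl28 1.90 ± 0.71 (unadjusted p = 0.0496, adjusted p = 0.377). With 32 added before taking logs the difference of Cxcl10 was 0.73 (adjusted p = 0.307). With the intensity trend and without array 277 Ccl28 rose by 2.75 ± 0.39 (adjusted p = 0.0168). The WT day 4 arrays are part of both comparisons of these genes, so a low value on them moves both at once.

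Cxcr4, the receptor of Cxcl12, read 265 and 59.1 on day 1, 146 and 359 on day 4 in WT, and 35.6 and 23.9 in heterozygous samples. The heterozygous arrays lay below the other 4, with a log2 difference from WT on day 4 of -2.93 ± 0.88 (unadjusted p = 0.0252, adjusted p = 0.314). With the intensity trend and without day 1 sample 303 the adjusted p was 0.045. Between the days the change was 0.86 ± 0.88, and without sample 303 it was -0.21.

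Ccl8 was lower by a log2 difference of -1.64 ± 0.39 (unadjusted p = 0.0108, adjusted p = 0.246). Ccr3, the eotaxin receptor, read 8.47 and 5.60 in WT and 1.87 and 2.21 in heterozygous samples, signals near the bottom of the scale. Beside these, 4 of the 5 leukocyte markers had lower means in heterozygous samples, among them Ptprc (log2 difference -2.08, unadjusted p = 0.00146, adjusted p = 0.169) and Cd53 (-1.41, adjusted p = 0.335), while Laptm5 read 325 and 317 in WT and 1740 and 471 in heterozygous samples. The summed signal of the 5 was 765 and 671 in WT and 1882 and 549 in heterozygous samples. None of these markers passed, and their part in the values of Cxcr4 and Ccl8 was not tested.

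Several ligands that fell between the days differed little by genotype. The log2 difference between heterozygous and WT samples on day 4 was 0.29 ± 0.23 for Cxcl17, 0.07 ± 0.31 for Cx3cl1 and 0.00 ± 0.27 for Cxcl16. Ccl6 differed by 0.05 ± 0.81, and Ccl27a by -0.55 ± 0.36. None of these passed, which does not show that the groups are alike.

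The third pair of groups, heterozygous samples on day 4 and WT on day 1, differ in both day and genotype and share arrays with the other comparisons. Here too 6 genes fell (12.5%, against 4.48% of all genes) and 2 rose (4.17%, against 5.07%). The genes that rose were again Ccl6 and Ccl27a, and those that fell were Cxcl2, Cxcl5, Cxcl10, Cxcl16, Cxcl17 and Cx3cl1. Ccl28 had a log2 difference of -3.28 that did not pass (adjusted p = 0.0644), against -5.19 in WT. It passed in 11 of the 15 alternatives, with adjusted p from 0.000329 to 0.271 over all 15, so the missing call is no contrast with WT. That of Cxcl2 was -9.32 (adjusted p = 0.0154), against -7.32 in WT.

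Beyond the ligands and receptors, 45 of 46 listed genes of chemokine signalling and scavenging were measured. Between the days 5 of them rose, 4 fell and 36 did not pass, with a median log2 change of 0.02. These are 11.1% and 8.89% of the 45, against 7.58% and 5.73% of all genes, whose median was 0.30. Ackr3, a scavenging receptor that binds Cxcl12, read 1837 and 653 on day 1, 40.7 and 33.7 on day 4 in WT, and 50.6 and 54.8 in heterozygous samples, and fell by 4.85 ± 0.54 (adjusted p = 0.0142). Ptk2b, a kinase downstream of chemokine receptors, read 360 and 389 on day 1 against 3075 and 2749 on day 4 and rose by 2.95 ± 0.19 (adjusted p = 0.00717). Rgs2, which shortens signals of G proteins, rose by 3.37 ± 0.29 (adjusted p = 0.00911), and Gng12, a G protein subunit, fell by 3.06 ± 0.28 (adjusted p = 0.00966). Pik3r5, also on the list, fell by 3.59 ± 0.38 (adjusted p = 0.0124). Ackr3 was named after its values were seen, outside the naming rule. None of the 45 passed between the genotypes.

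Of 44 listed genes of the NF-kB and interferon pathways, inhibitors such as Tnfaip3 among them, 40 were measured. Between the days 9 fell, 1 rose and 30 did not pass, with a median log2 change of -0.65. These are 22.5% and 2.5% of the 40, against 5.73% and 7.58% of all genes. Il1a, a cytokine that activates NF-kB, read 4985 and 2742 on day 1, 31.3 and 3.87 on day 4 in WT, and 46.0 and 41.3 in heterozygous samples, and fell by 8.20 ± 0.98 (adjusted p = 0.0159). Tnfaip3, itself a target and inhibitor of NF-kB, fell by 2.73 ± 0.30 (adjusted p = 0.0132). Myd88, the adaptor of interleukin-1 and Toll-like receptors, rose by 3.52 ± 0.23 (adjusted p = 0.00717). Ifnar2, a subunit of the type I interferon receptor, fell by 2.09 ± 0.26 (adjusted p = 0.0169). Myd88 was the 1 rise on this list, and 10 of the 40 had a positive log2 change between the days. None passed between the genotypes.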

How the data were processed

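Biotin-labelled RNA of uterine epithelium was read on Affymetrix 3′ arrays, 1 per sample, per the labels' protocols. The deposited values are a linear signal intensity per probe set, made by the authors. The submitters' processing notes name Transcriptome Analysis Console, Affymetrix Expression Console and RMA, and give neither versions nor roles. With 2% trimmed from each end, every array had a mean of 500. Of 45101 probe sets, 34945 had 1 platform gene symbol and were used, giving 18193 genes. Another 4 probe sets of chemokines that list several genes were left out.

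Tests used log2(signal + 1), unfiltered and not normalized again. The model in limma 3.58.1, run in R 4.3.3, had 1 coefficient for each group over the 6 arrays, which leaves 3 residual degrees of freedom, with eBayes and Benjamini-Hochberg adjustment over all genes, and an adjusted p under 0.05 was a call. Errors after ± are limma's standard errors. The fit was tested on simulated data. No exact permutation test was run, since the smallest p it allows for 2 against 2 arrays is 0.333. Named genes were the 8 called between the days and the 10 highest in mean log2 value. Also named were those at least 2-fold different between the genotypes at an unadjusted p under 0.05 with a group mean of 100 or more. From each pathway list the called genes of smallest p, at most 4, were named. The genes and lists were chosen with earlier results of these data known. Alternatives were quantile normalization, centring on the array median, a pseudocount of 32, dropping the dimmest genes, eBayes with an intensity trend, averaged probe sets, a fit of single probe sets, and leaving out each array.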

Additional observations from a re-analysis of the deposited data

How the results depend on the processing

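The 6 falls and 2 rises between the days were recomputed under each alternative. The count of falls was 8 after quantile normalization, 8 after centring on the array median, 7 with a pseudocount of 32, 8 with an intensity trend, 6 with the dimmest genes left out and 6 with the mean of all probe sets. The count of rises was 2 under these, except 3 with the dimmest genes left out. In that setting 21 of the 48 genes remained and Cxcl10 was dropped. Calls over all genes, both directions together, also moved with the setting. They were 2421 in the main fit, 3002 after quantile normalization and 1408 after centring. With the pseudocount of 32 they were 3419, with the intensity trend 4506, with the dimmest genes left out 3849 and with the mean of all probe sets 1811. Leaving out an array gave 0 to 9 falls and 0 to 2 rises. No gene of all 18193 passed without day 1 sample 302 or without 303, while with the intensity trend 7 of the 48 fell in each case. Without array 277, 9 fell and 1 rose. Without heterozygous sample 253 or 281 only Cxcl2, Cxcl10, Cxcl16 and Cxcl17 passed.

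Between the genotypes 0 genes passed in either direction in every setting, with the exceptions of 1 fall with the intensity trend without sample 303 (Cxcr4) and 1 rise with the trend without array 277 (Ccl28). For heterozygous day 4 against WT day 1, leaving out an array gave 0 to 9 falls and 0 to 1 rises, and centring, the mean of probe sets and every probe set on its own each gave 1 rise. Directions turned for some small differences. Between the days Cxcr4 ranged from -0.21 without sample 303, also with the trend, to 1.94 without 302. Between the genotypes Ccl20 was 0.61 after quantile normalization, 0.36 after centring, and -0.80 to 0.63 on leaving out an array. On leaving out an array Ccl4 ranged from -1.01 to 0.11, Ccl6 from -0.14 to 0.24, Cx3cl1 from -0.22 to 0.36, Cxcl1 from -1.50 to 0.71 and Cxcl16 from -0.20 to 0.20. Cxcl1 was 0.05 after centring. Cxcl16 was 0.05 after quantile normalization, 0.45 after centring, 0.30 with the mean of probe sets, and 0.10 without array 277 with or without the trend. The cause was not tested. The alternatives without an array and with the trend together, and every probe set on its own, were chosen after seeing the data. No paired analysis was possible because the labels give no replicate number shared between groups.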

Other observations

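Of the scavenging receptors on the list of chemokine signalling, Ackr3 fell and Ackr4 rose between the days. Ackr4, which takes up Ccl19, Ccl21 and Ccl25 without signalling to G proteins, read 105 and 173 on day 1, 500 and 948 on day 4 in WT, and 366 and 358 in heterozygous samples. It rose by 2.35 ± 0.43 on the log2 scale (adjusted p = 0.0386 in limma). Between the genotypes both heterozygous arrays lay below both WT arrays, with a log2 difference of -0.93 ± 0.43 that did not pass (adjusted p = 0.432). Ccl25, its ligand among the genes measured here, read 60.2 and 32.9 on day 1, 121 and 93.4 on day 4 in WT, and 64.0 and 55.0 in heterozygous samples. The change of Ccl25 between the days, 1.24 ± 0.37, did not pass (adjusted p = 0.108), but passed with the dimmest genes left out. The second Ccl25 probe set, 1418777_at, read 48.3 and 35.9, then 45.3 and 79.1, and 52.1 and 28.1, with overlap in each comparison.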
